A study of Homo sapiens with 4 samples.

Results

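Broad single RepID peaks were regions of the RepID chromatin immunoprecipitation (ChIP) list that were at least 1500 bp wide and had no other region of that list at a gap of 1000 bp or less, on chromosomes 1 to 22. The members were thus chosen by their width and spacing in the ChIP list. The rule found 664 regions among 24222 in the whole list (2.74%). They made up 5.43% of the 12238 autosomal regions with no such neighbour and 53.9% of the 1231 autosomal regions of that width. Together they covered 1.295 Mb, or 7.77% of the bases in the autosomal RepID list.

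RepID (also PHIP or DCAF14) is a WD40-repeat and bromodomain protein that binds chromatin and associates with the CUL4-DDB1 ubiquitin ligase. Replication of human chromosomes starts at many sites, some narrow and some spread over broad initiation zones, and short nascent strands that carry an RNA primer at the 5′ end mark the places where synthesis has just begun. Regions rich in nascent strands are therefore read as replication-initiation regions.

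RepID binding was measured by anti-FLAG ChIP in U2OS osteosarcoma cells that stably expressed RepID with a triple FLAG tag. Initiation was measured by nascent-strand sequencing in asynchronous HCT116 colon carcinoma cells, either wild type (WT) or from a RepID knockout (KO) line made with CRISPR and selected in puromycin, a step that the knockout cannot be told apart from here. Each condition had 1 library, so the libraries could be compared but the conditions had no replicate check, and binding and initiation came from different cell lines. The lists give called regions with a score and no read counts, so the sequencing depth is unknown, and the larger size of the KO list (159667 regions, 19.33% of the autosomal length) than of the WT list (78859 regions, 10.44%) cannot be told apart from depth or calling.

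Comparisons below are with 11574 narrow single peaks, which were under 1500 bp and likewise had no neighbour, and with 567 broad peaks that had a neighbour. Positions are in hg19 and count from 1. Intervals in parentheses are 95% intervals (exact Clopper-Pearson for a share, Newcombe for a difference of shares in percentage points). They cover counting error over regions only, and neighbouring regions are not independent.

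Most broad single peaks were close to the lower limit of width. The median was 1778 bp and the quartiles were 1621 and 2086 bp, with 466 peaks under 2 kb, 170 from 2 to 3 kb and 28 of 3 kb or more. Only 7 were wider than 4 kb, and the widest, at chr22:28192267-28198858, reached 6592 bp. The distance to the next RepID region was 23.8 kb at the median, but 56 peaks had a neighbour just beyond the limit, at 2 kb or less, and 123 had none within 100 kb.

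The MACS score, which rises with the strength of the enrichment, ran from 157 to 3233 with a median of 965. Only 1 of the 664 peaks scored below the median of the whole list, 198.1. The median was 182 for narrow single peaks and 975 for broad peaks with a neighbour. Width and score come from the same ChIP library as the rule, so these values describe the peaks and test nothing. Among the 664 peaks, width and score rose together (Spearman's rho = 0.507, a description across peaks of 1 library). A score of exactly 3100 was shared by 21 peaks and exceeded by 2, a ceiling that leaves the order among the strongest peaks partly unresolved.

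The highest score, 3233, belonged to chr4:62065796-62069001, a peak of 3206 bp with its nearest RepID neighbour 541104 bp away. A WT initiation region at chr4:62065601-62069400 covered it from edge to edge, and the nearest KO region lay 21199 bp away. The next in score, 3199, was chr18:5894397-5896520. Its WT region, chr18:5894401-5897000, had a modest score of 261 (percentile 72.4 of the WT list), and no KO region lay closer than 6680 bp. Both of these strong, wide binding sites were thus at a WT initiation region of about their own size that had no KO counterpart.

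At the edge of the rule, the narrowest members were chr16:74401145-74402644 and chr10:126849916-126851415, each 1500 bp wide. The widest regions left out for width were chr13:44452966-44454464 (1499 bp) and chr2:91634393-91635890 (1498 bp), the latter at the score ceiling of 3100. The closest neighbours allowed were at 1003 bp from chr20:61428322-61429866 and at 1004 bp from chr20:57464325-57466109. The broad regions left out by the smallest margin were chr1:16275886-16277726 (gap 999 bp) and chr9:137215837-137217955 (gap 986 bp).

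**Figure D1:**
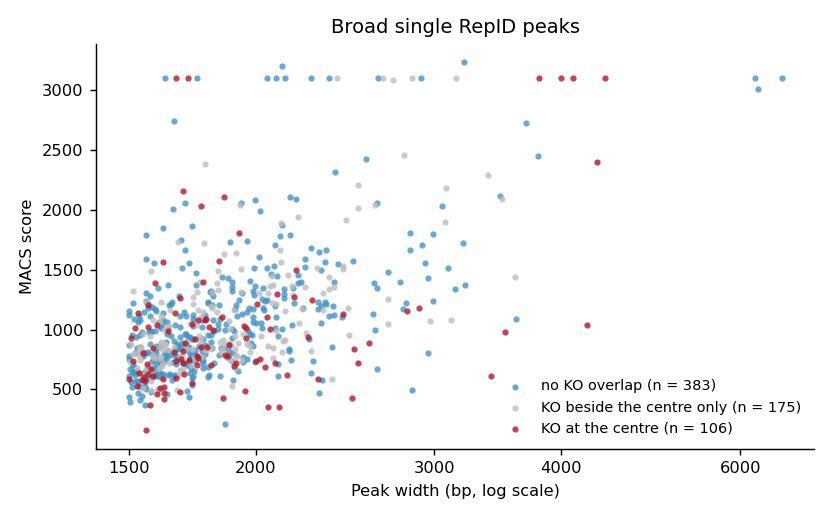
MACS score against peak width (bp, log scale) for each of the 664 broad single RepID peaks. Points are coloured by the KO initiation list: 383 peaks without KO overlap, 175 with KO beside the centre only and 106 with KO at the centre. Scores pile up at the ceiling of 3100. KO-covered centres occur at widths of up to 4420 bp, while the peaks of 6200 bp and more have no KO overlap.

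Nearly every broad single peak lay in a WT initiation region. A WT region overlapped 650 of the 664 peaks (97.9%, against 87.8% of all autosomal RepID regions), and no further peak had one within 2 kb (91.2% of all). It covered the centre of 649 of the 664 peaks (97.7%, 96.3 to 98.7), against 85.8% of all autosomal RepID regions and 78.0% of narrow single peaks. The difference from narrow single peaks was 19.8 percentage points (18.1 to 20.9), and 34.4 points (32.3 to 36.1) with WT regions at or above their median score. WT regions covered the whole body of 79.5% of the broad single peaks (77.2% of all autosomal RepID regions). Broad peaks with a neighbour had a slightly higher share at the centre, 99.3%, a difference of -1.55 points (-3.05 to -0.146). The higher WT share held on all 22 autosomes.

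Broad peaks also had a stronger ChIP signal, whose part in this difference was not tested. In bands of MACS score, the WT share at the centre exceeded that of narrow single peaks by 5.73 points (-0.108 to 8.79) at 400 to 700, by 4.67 points (1.91 to 7.71) at 700 to 1000 and by 7.19 points (1.53 to 16.6) at 1000 to 1500. In these 3 bands the difference was smaller than the 19.8 points seen across all scores, and at 400 to 700 the interval included 0. The bands at either end held few peaks of 1 kind. The difference was 24.4 points (-11.01 to 25.3) at 100 to 400, with 7 broad peaks, and 55.2 points (25.8 to 78.5) at 1500 or more, with 10 narrow peaks.

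The WT regions at these centres were wider and higher in score than at narrow single peaks, and close to those at RepID regions as a whole. Their median width was 4800 bp (quartiles 2800 and 10800 bp), against 3600 bp at narrow single peaks, 12000 bp at broad peaks with a neighbour, 4600 bp at all autosomal RepID regions and 2400 bp over the whole WT list. Their median score stood at percentile 87.7 of the WT list, against 76.6 at narrow single peaks, 96.4 at broad peaks with a neighbour and 84.6 at all autosomal RepID regions. A long WT region meets any given centre more easily than a short one, so the whole WT list is not a like reference for width. The rank by score within that list may share this limit. WT regions in the top 10% by score held 41.6% of the 649 peaks and 29.8% of the narrow ones, a difference of 11.8 points (7.97 to 15.8), and 39.5% of all autosomal RepID regions. WT regions longer than 10 kb held 179 of the 649 (27.6%, against 28.8% of all), 4.82 points more than for narrow single peaks (1.40 to 8.48) and 26.4 points fewer than for broad peaks with a neighbour. Across the 649 peaks, the width of the RepID peak and that of the WT region were weakly related (Spearman's rho = 0.177, with the same pair of libraries behind every point).

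No broad single peak was split between WT regions: each touched at most 1, a count that is not given here for other RepID regions. The 649 centres fell in 639 distinct WT regions, so a few regions held more than 1 of these peaks. The longest of all WT regions at these centres, chr12:34439401-34560200, spanned 120800 bp with a score of 26028 and held both chr12:34498350-34504549 (6200 bp wide, score 3100) and chr12:34487660-34491355 (3696 bp wide, score 2724). No KO region came closer to the first of these than 30149 bp or to the second than 19459 bp.

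Most peaks lay inside their WT region. Of the 649, 528 (81.4%) lay wholly inside the WT region, 110 (16.9%) passed 1 of its ends and 11 passed both. Wholly inside were 87.2% of narrow single peaks, 93.4% of broad peaks with a neighbour and 90.1% of all autosomal RepID regions, a measure that depends on the width by which the peaks were chosen. The peak took a median of 39.3% of the length of the WT region, against 15.8% for narrow single peaks. The peak centre was a median of 622 bp from the middle of the WT region (659 bp for narrow single peaks). It fell in the inner 50% of the region for 74.1% of the peaks, 14.6 points more often than for narrow single peaks (10.9 to 18.0), although a wide peak inside a region of similar size can sit only near its middle. In WT regions longer than 10 kb, where the peak has room to move, the inner 50% held 47.5% of broad and 44.2% of narrow single peaks, and the difference of 3.25 points had an interval that included 0 (-4.25 to 10.8).

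**Figure D2:**
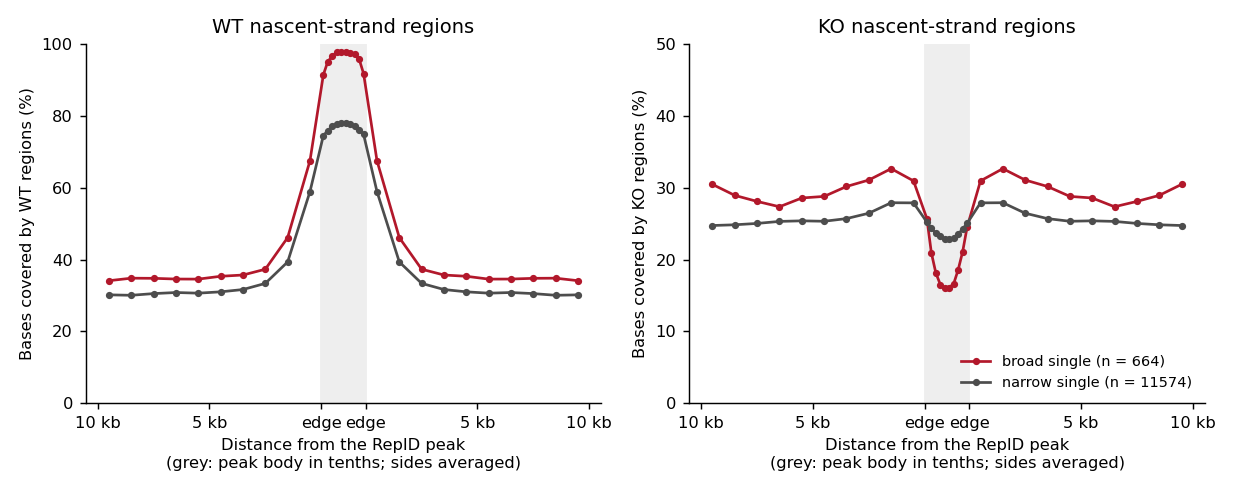
Share of bases covered by WT (left, axis to 100%) and KO (right, axis to 50%) initiation regions across the peak body in 10 equal parts (grey) and in 1-kb steps out to 10 kb from either edge, both sides averaged, for 664 broad and 11574 narrow single RepID peaks. WT coverage peaks over the body, at up to 97.8% for broad peaks, whereas KO coverage of broad peaks falls from 32.7% at 1 to 2 kb outside the edge to 16.1% at the centre.

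Much of the KO overlap at broad single peaks lay beside the centre only. A KO region overlapped 281 of the 664 peaks (42.3%, 38.5 to 46.2), against 28.2% of all autosomal RepID regions, where 1 bp of overlap was enough, and 17.02% had at least 50% of the peak covered. A KO region covered the centre of 106 (16.0%, 13.26 to 18.98; 19.9% of all autosomal RepID regions) and the whole body of 59 (8.89%; 16.8% of all). In 175 peaks (26.4%; 8.34% of all) KO regions covered only a part beside the centre. A further 128 peaks (19.3%; 24.2% of all) had a KO region within 2 kb but none overlapping. Thus 61.6% had one overlapping or within 2 kb (52.4% of all autosomal RepID regions), and 255 (38.4%; 47.6% of all) had none.

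Against narrow single peaks, KO overlap was 11.9 points more frequent (8.07 to 15.7) while coverage of the centre was 6.83 points less frequent (-9.53 to -3.75). The latter difference was -3.95 points with the KO list cut to the size of the WT list and -4.11 points with KO regions at or above their median score. Overlap of any size is a criterion that a wider peak meets more easily, whereas the centre is a single base in every peak. Broad peaks with a neighbour, of similar width, overlapped KO regions in 32.1%, 10.2 points less often than broad single peaks (4.80 to 15.5). KO coverage confined to a part beside the centre was found in 7.66% of narrow single peaks. Broad peaks with a neighbour had a KO region at the centre in 14.8%, and the difference of 1.15 points had an interval that included 0 (-2.94 to 5.16).

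At matched MACS score the lower KO share at the centre did not hold throughout, and no band gave a lower share with an interval that left out 0. Between 400 and 700, KO regions covered 24.5% of broad and 13.6% of narrow single centres, a difference in the other direction of 10.96 points (3.64 to 19.9). Between 700 and 1000 the shares were 14.6% and 13.1% (difference 1.54 points, -4.22 to 7.61), and between 1000 and 1500 they were 13.3% and 16.7% (-3.33 points, -14.8 to 5.50). In the bands with few peaks of 1 kind, the difference was 32.6 points (0.455 to 59.6) at 100 to 400 and -17.5 points (-48.2 to 3.21) at 1500 or more. By contrast, a split by the width of the WT region at the centre kept the lower KO share in all 5 classes, from -14.8 points (-19.4 to -8.60) for WT regions of 3 to 5 kb to -3.16 points (-9.60 to 4.66) for those of 5 to 10 kb. The interval included 0 in the latter class and for WT regions of 20 kb or more (-6.63 points, -13.6 to 2.83).

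**Figure D3:**
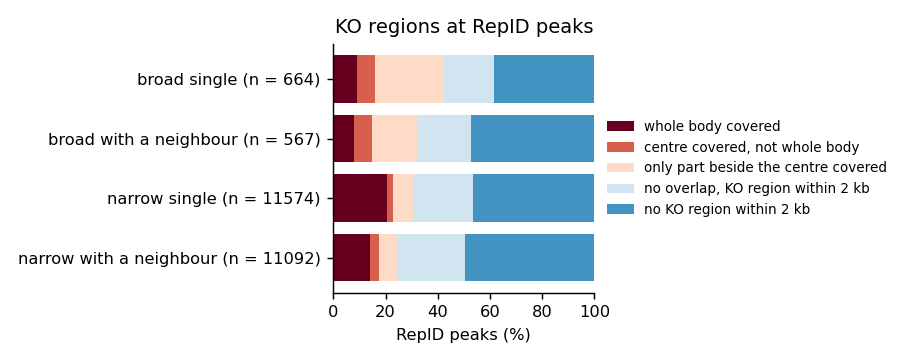
Share of RepID peaks (%, bars add up to 100) by the position of KO initiation regions, for broad single (664), broad with a neighbour (567), narrow single (11574) and narrow with a neighbour (11092) peaks. Coverage beside the centre only makes up 26.4% of broad single and 7.66% of narrow single peaks, and whole-body coverage 8.89% and 20.4%.

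Along the peak body, KO coverage dipped towards the middle. Over the 664 broad peaks it was 25.7% in the outermost of the 10 parts of the body on 1 side and 24.5% on the other, and fell by steps to 16.1% in the 2 central parts. Outside the edges it was higher, 31.0% in the first kilobase and 32.7% in the second, and it was 30.5% at 9 to 10 kb and 25.95% at 19 to 20 kb. The centre thus carried 0.524 times the KO coverage of the flank at 9 to 10 kb, against 0.921 times for narrow single peaks and 0.522 times for broad peaks with a neighbour. WT coverage had the opposite shape, from 97.7% at the centre to 34.1% at 9 to 10 kb, a ratio of 2.87 (2.58 for narrow single peaks). These ratios are values of 1 library each and were not tested.

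Because WT and KO regions also differ in where they lie, KO coverage was compared within the same WT region, under the RepID peak and in the rest of the region. This was possible for 583 peaks whose WT region had at least 400 bp outside the peak, and the other 66 were left out. KO regions covered 19.97% of the bases under the peak and 37.6% of the rest of the WT region on average, a difference of -17.7 points (SE 1.35 over peaks). It was -11.1 points when the KO list was cut to the size of the WT list by score, and -11.4 points with KO regions at or above their median score, alternatives chosen after seeing the data. The corresponding values at narrow single peaks were 26.0% and 34.7%, a difference of -8.65 points (SE 0.341). KO coverage was lower under the peak in 299 broad peaks (51.3%, against 40.5% of all autosomal RepID regions), higher in 72 (12.3%, against 15.2%) and equal in 212. Where the WT region had any KO coverage (397 peaks), it was lower under the peak in 75.3%, 16.1 points more often than at narrow single peaks (11.5 to 20.3). The share was 65.6% for all autosomal RepID regions and 77.5% for broad peaks with a neighbour. In 145 of the 397 (36.5%) the rest of the WT region had KO coverage and the peak none, and in 5 the reverse was seen. The share was 46.2% at narrow single peaks and 52.1% at all autosomal RepID regions, but a peak chosen to be wide is less easily free of any overlap, so these are descriptions. At matched MACS score, broad and narrow single peaks were closer to each other. The difference was -11.1 points (SE 3.44) for broad and -15.0 points (SE 0.904) for narrow peaks between 400 and 700, -19.1 (SE 2.10) and -18.4 points (SE 2.02) between 700 and 1000, and -19.7 (SE 2.496) and -12.3 points (SE 4.94) between 1000 and 1500. The dip under the peak, relative to the rest of the WT region, was thus present in each of these bands for both kinds of peak. Most peak centres lay in the inner part of their WT region, so the rest of the region lay more towards its ends. The comparison did not match position within the WT region. Whether KO coverage was likewise lower at the middle of WT regions without a RepID peak was not tested.

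The peak with the highest-scoring WT region showed such a partial overlap. This peak, chr8:145733195-145735895, had a MACS score of 1256 and lay in chr8:145713401-145764600, a WT region of 51200 bp with a score of 28364, and KO regions covered 48.2% of its body but not its centre. The peak chr17:79994187-79995777, in a WT region of 55200 bp that scored 23774, was covered over 88.9% of its body, centre included, by the KO region chr17:79992001-79995600. In contrast chr22:19705158-19707860, inside a WT region of 58000 bp with a score of 24055, had no KO region within 4340 bp. Wide WT regions of very high score thus differed from each other in KO coverage at the RepID peak.

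KO coverage at the edges of a peak was usually on 1 side. Of the 175 peaks covered only beside the centre, 144 had a KO region at 1 end, 30 (17.1%) at both ends and 1 at neither end, the KO region then lying within the body. KO regions at both ends with an uncovered centre were found in 24 of 887 narrow single peaks of that class (2.71%), in 9 of 98 broad peaks with a neighbour (9.18%) and in 69 of 1993 over all autosomal RepID regions (3.46%), values that depend on the width by which the peaks were chosen. At most 2 KO regions overlapped the same peak, as seen in 32 peaks, a count likewise not given here for other RepID regions.

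Among the 383 peaks without KO overlap, the nearest KO region was a median of 3746 bp away (3997 bp for narrow single peaks). KO regions lay within 10 kb on both sides of 142 of them (37.1%) and on neither side of 84 (21.9%). Without overlap, these shares were 33.9% and 22.9% for narrow single peaks and 34.4% and 23.05% for all autosomal RepID regions. The widest of all, chr22:28192267-28198858, had no KO overlap. It lay in the WT region chr22:28191001-28201400, which scored 2823, with KO regions 3942 bp away on 1 side and 6666 bp on the other. The second widest, chr7:2546507-2552745, was 6239 bp wide, scored 3007 and lay in a WT region of 53800 bp that scored 16830, and the nearest KO region was 26106 bp away.

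Where KO regions did cover the centre of a broad single peak, they were wider and higher in score than at the other RepID groups. The 106 had a median KO width of 6000 bp, against 4400 bp at narrow single peaks and a median KO score at percentile 90.3 of the KO list, against 76.2. The values were 4900 bp and 74.65 at broad peaks with a neighbour, and 4400 bp and 75.65 at all autosomal RepID regions. Of the 106, 35 were on chromosomes 8 and 17, and 5 without WT at the centre had KO scores of 24296 or more. The 59 wholly covered peaks included chr3:75717819-75722159 (4341 bp wide, score 2399), under a KO region of 44400 bp that scored 6657, and chr2:91843820-91848239 (4420 bp wide, score 3100), where the WT region chr2:91843001-91848800 and the KO region chr2:91842801-91849000 had nearly the same bounds. At chr16:32126720-32128415 (score 2156) a WT region of 2600 bp lay within a KO region of 6600 bp.

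By both lists together, 549 of the 664 peaks (82.7%) had a WT but no KO region at the centre. The share was 68.2% for all autosomal RepID regions, 84.5% for broad peaks with a neighbour and 58.9% for narrow single peaks. The difference from narrow single peaks was 23.8 points (20.6 to 26.6), and it was not split by MACS score. In the score bands from 400 to 1500, the WT share at the centre was only 4.67 to 7.19 points higher for broad peaks. The KO share at the centre differed by 10.96 points at 400 to 700, 1.54 points at 700 to 1000 and -3.33 points at 1000 to 1500. Of the 549, 375 were not touched by a KO region at all, which was 56.5% of the 664 peaks. That share was 60.4% for all autosomal RepID regions, 67.2% for broad peaks with a neighbour and 52.2% for narrow single peaks. WT and KO regions both covered the centre of 100 peaks (15.1%, against 17.6% of all). The remaining 15 had no WT region at the centre, 6 of them with a KO region there and 9 with neither.

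**Figure D4:**
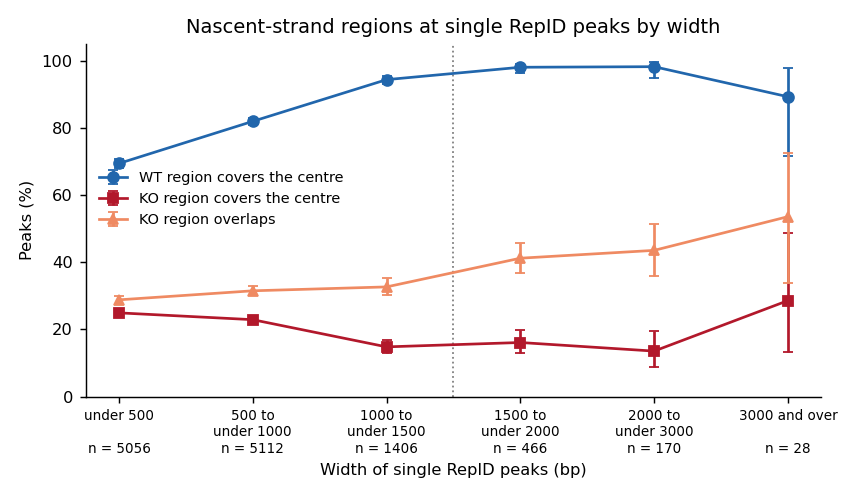
Share of single RepID peaks (%) whose centre lay in a WT region, whose centre lay in a KO region or which overlapped a KO region, by peak width in bp, with exact 95% intervals and the number of peaks under each class. The dotted line marks 1500 bp. The WT share rises from 69.4% under 500 bp to 98.2% at 2000 to 3000 bp, while the KO share at the centre is between 13.5% and 16.1% from 1000 to 3000 bp.

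Across the limit of 1500 bp, KO coverage of the centre stayed within its interval, while WT coverage of the centre and KO overlap were higher above it. Among single peaks of 1000 to 1500 bp, just under it, a KO region covered the centre of 14.8% (13.0 to 16.8) and a WT region that of 94.4% (93.1 to 95.5). For peaks of 1500 to 2000 bp the shares were 16.1% (12.9 to 19.8) and 98.1% (96.4 to 99.1). Peaks of 2000 to 3000 bp stood at 13.5% and 98.2%. KO overlap of any size was found in 32.6% of peaks of 1000 to 1500 bp (30.2 to 35.2), 41.2% of those of 1500 to 2000 bp (36.7 to 45.8) and 43.5% of those of 2000 to 3000 bp. The 28 peaks of 3 kb or more had a KO region at the centre in 8 cases (28.6%) and a WT region in 89.3%, but the KO interval for so few peaks was wide (13.2 to 48.7) and included the values of the other classes. The median width of the WT region rose from 4400 bp at peaks of 1500 to 2000 bp to 10800 bp at those of 3 kb or more.

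Among the broad single peaks themselves, the lowest 25% by MACS score had a KO region at the centre in 25.9% (43 of 166) and the highest 25% in 10.2% (17 of 166). The groups between them were at 11.4% and 16.3%, so the fall was not in step with score. Over all 664 peaks, score and KO coverage of the body were close to unrelated (Spearman's rho = -0.0791, a description across peaks).

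Broad single peaks were unevenly spread over the chromosomes. Chromosome 22 had the highest density, 0.976 per Mb, followed by chromosome 20 (0.588) and chromosome 17 (0.567), against 0.231 over all autosomes. Chromosomes 13 (0.0695) and 4 (0.0733) had the lowest. The density of all RepID regions ran partly the same way over the autosomes (Spearman's rho = 0.581, a description). It was 21.4 per Mb on chromosome 22, 16.2 on 20, 21.3 on 17, 3.16 on 13 and 3.49 on 4. Chromosomes 19 (20.9 per Mb) and 21 (2.74) departed from it, with 0.169 and 0.249 broad single peaks per Mb. Broad single peaks as a share of single peaks gave a different order of chromosomes. Chromosome 21 was highest (12 of 84, 14.3%), followed by chromosome 22 (10.2%) and chromosome 8 (8.58%). On chromosome 21, many of the 12 lay close to its longest stretch without any listed region, which ended at 9431400. The window chr21:5000001-10000000 held 4 among 11 single peaks, and chr21:10000001-15000000 held 3 among 9. Chromosome 19, rich in RepID regions, was lowest (10 of 652, 1.53%). In windows of 5 Mb, 276 held at least 1 of these peaks and 37 held 5 or more, together 256 peaks. The fullest were chr8:140000001-145000000 with 15 peaks among 234 RepID regions (116 of them single) and chr7:1-5000000 with 12 among 202 (90 single).

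KO coverage of the centre also varied by chromosome, and the same pair of chromosomes led for broad and narrow single peaks. It was highest on chromosome 8 (18 of 46 peaks, 39.1%; 42.6% of narrow single peaks) and on chromosome 17 (17 of 46, 37.0%; 36.8%). None of the 8 peaks on chromosome 13 or the 14 on chromosome 18 had a KO region at the centre, counts of 0 that allow shares of up to 37.5% and 21.4% (taken as 3 counts of the number of peaks), while narrow single peaks stood at 11.7% and 20.3% there. The share was below that of narrow single peaks on 18 of 22 autosomes. Chromosomes 8 and 17 thus gave 35 of the 106 covered centres from 92 of the 664 peaks, and without them the share over the remaining 572 peaks was 12.4%. The part of these chromosomes in the other values was not tested beyond leaving them out.

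**Figure D5:**
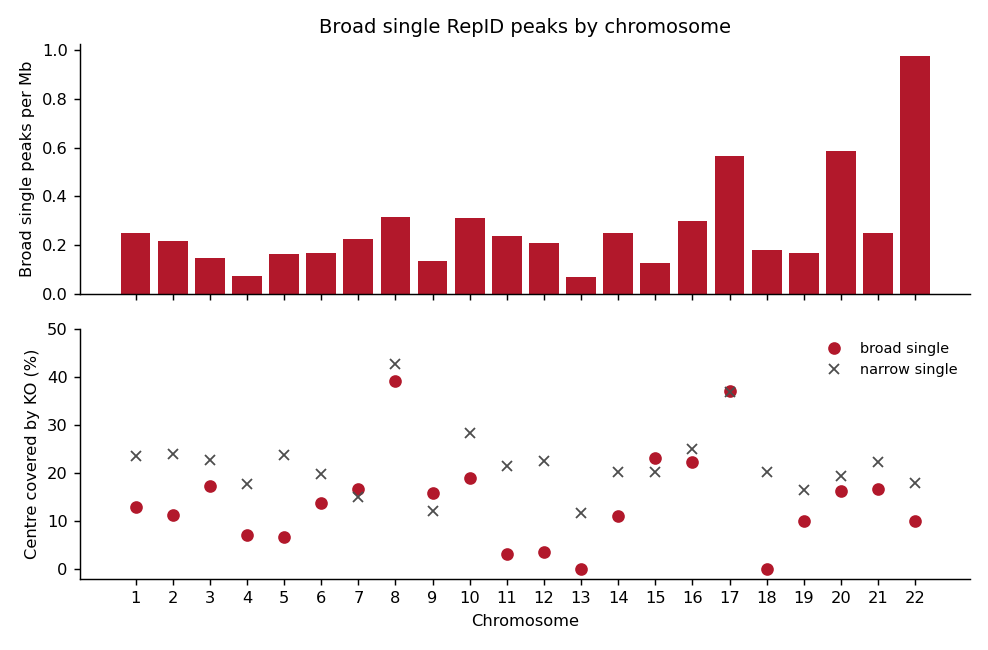
Upper panel, broad single RepID peaks per Mb on chromosomes 1 to 22, with chromosome 22 highest at 0.976. Lower panel, share of centres covered by a KO region (%) for broad (circles) and narrow (crosses) single peaks, with chromosomes 8 and 17 highest for both kinds.

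A group of broad single peaks stood beside the longest stretch of each chromosome without a region in any of the 3 lists, which on most human chromosomes holds the centromere. Within 2 Mb of such a stretch lay 50 of the 664 peaks (7.53%, 5.64 to 9.81), against 3.37% of narrow single peaks and 3.18% of all autosomal RepID regions. They included 13 of the 21 peaks at the score ceiling, where the whole autosomal list had 17 of 31. The 31 peaks within 1 Mb had a median score of 1864, with a WT region at the centre of 23 (74.2%) and a KO region at the centre of 11 (35.5%), near the 76.4% and 31.1% of all autosomal RepID regions that close to a stretch.

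The 14 peaks with no WT region within 2 kb were largely of this group, since 9 of them lay within 2 Mb of such a stretch. A KO region covered the centre of 6 of the 14 (42.9%, 17.7 to 71.1). For narrow single peaks with no WT region within 2 kb the share was 15.5% (274 of 1768). Of the 6 KO regions at broad single peaks, 5 scored from 24296 to 43090, values that only 14 of the 159667 KO regions reached. At chr1:121483810-121485480 (score 3100), the KO region chr1:121478401-121485600 had a score of 43090, and the nearest WT region was 53409 bp away. At chr10:42596695-42600688 (3994 bp wide, score 3100), the KO region chr10:42596601-42606400 scored 24296, and the nearest WT region was 5912 bp away. The other 8 peaks overlapped neither list, such as the close pair chr2:133025118-133027213 (score 3100) and chr2:133029559-133031954 (score 2316), and chr20:29610942-29612646 (score 2061). Without the peaks within 2 Mb of these stretches, WT regions covered the centre of 99.2% of the remaining 614.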

How the data were processed

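The authors deposited 3 lists of called regions (RepID ChIP in U2OS, nascent strands in WT and RepID KO HCT116), each row with a position and a score. The submitters' processing notes name hg19, MACS and SICER. Per the study's methods the RepID list came from MACS, and the caller of the HCT116 lists is not given in the sources used here; all their bounds lie on a 200-bp grid. The deposited score of the WT and KO lists has no stated unit and was used only as a rank within its list. The HCT116 genomic control, which the labels name as the control for calling, was not analysed here.

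Regions were grouped by width and gap, overlaps needed 1 bp, and the centre was the middle base. Coverage was computed in 10 parts of the body and in 1-kb flank steps in pandas 2.3.3 (numpy 2.4.6, Python 3.11.15), with intervals from SciPy 1.17.1, after tests on simulated data. With 1 library per condition no p-value was computed. The density per Mb used the extent from the chromosome start to the last region in any list.

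The members and lists were chosen with earlier results of these data known. Named regions were the 10 highest-scoring members, the 5 widest, the 5 with the highest-scoring WT region, the 5 highest-scoring each with WT at the centre and no KO overlap, with whole KO coverage and with no WT region within 2 kb, and those at the edges of the rule, from which the text gives examples. Alternatives varied the minimum width, the gap, the score minimum of the WT and KO lists, the size of the KO list and the definition of overlap. Sequence and gene annotation were not used here.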

Additional observations from a re-analysis of the deposited data

How the results depend on the processing

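No paired analysis was possible because each group holds 1 sample. Of 106 alternative values (73 planned), 87 stayed within the interval of the main value (or, for the number of peaks, within 1.5 times of it), 19 moved and 0 reversed. Some alternatives could change little, since the RepID score minimum kept 663 peaks and adding chromosomes X and Y gave 667. No alternative matched the MACS score of broad and narrow peaks. A minimum width of 1200 bp gave 1324 peaks with KO overlap at 37.99%, and 2000 bp gave 198 peaks. With WT regions at or above the median WT score, WT overlap and WT coverage of the centre were both 94.88%, and the WT difference from narrow single peaks was 34.44 points. With KO regions at or above the median KO score, KO overlap was 30.57% and KO at the centre 13.25%. With only the strongest KO regions kept, as many as the WT list holds, these were 29.97% and 13.25%. KO overlap was 17.02% when at least 50% of the peak had to be covered and 61.6% with a gap of up to 2 kb. The difference from narrow single peaks in KO at the centre ranged, over planned and added alternatives, from -8.966 to -3.949 points, and the centre to flank ratio of KO coverage from 0.4559 to 0.6153. The bands of MACS score, not counted among the alternatives, gave a difference in KO at the centre of 10.96 points (3.64 to 19.9) at 400 to 700. It was 1.54 points (-4.22 to 7.61) at 700 to 1000 and -3.33 points (-14.8 to 5.50) at 1000 to 1500. The following were chosen after seeing the data. The difference in KO coverage under the peak from the rest of the WT region was -11.38 points with KO regions at or above the median KO score and -11.1 points with the KO list cut to the size of the WT list. Without chromosomes 8 and 17, KO overlap was 37.41% and KO at the centre 12.41%. Without regions within 2 Mb of the longest empty stretch, WT overlap and WT at the centre were 99.19% and the WT difference 21.01 points. The cause of these shifts was not tested beyond the changed lists themselves. Depth, which is unknown, limits how far absence from a list can be read as absence of initiation.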
